A study of Mus musculus with 156 samples.

Results

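The comparison set Firre knockout mouse embryonic stem cells against wild-type cells at 0 min of the long doxycycline course. Its libraries were chosen by name: 3 of the KO control line, labelled Firre KO, and 3 of the WT control line, labelled WT, 6 of the 156 libraries of the series. A second pair of lines at the same time gave 3 libraries of the KO transgene line, labelled Firre KO / Firre inducible transgene, and 3 of the WT transgene line, labelled Firre inducible transgene. Doxycycline switches that transgene on in the time courses, and the study pairs each transgene line with a control line of its own background. All cells were grown on gelatin in serum with LIF, PD0325901 (which blocks MEK) and CHIR99021 (which blocks GSK3), a mix that holds stem cells in an undifferentiated state, and the labels give doxycycline as the treatment also at 0 min. Poly(A) RNA was sequenced with a kit that does not mark strand. Each group is 1 line and what a replicate is (a culture, a well or a library) is not given in the sources used here, nor is how the knockout was made. The p-values therefore measure the spread between these libraries, and genotype and line cannot be told apart.

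Firre is a long noncoding RNA made from the X chromosome. It stays in the nucleus, binds the nuclear matrix protein HNRNPU through a repeated domain, and is known for contacts between its own locus and genes on other chromosomes. On the inactive X chromosome of female cells its locus escapes silencing, and the RNA helps to keep that chromosome's position and histone marks.

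The 6 libraries held between 29760522 and 42651558 counts, 3.42 to 3.94% of them from mitochondrially encoded genes, and 13140 to 13301 genes reached 1 TPM (a level scaled to transcript length and library size). Expression correlated across genes between 0.993 and 0.9943 within a group and between 0.9866 and 0.9887 across the groups, as a description over genes that share a library. Stem cell factors were abundant in both lines. Nanog, for example, had 681, 695 and 704 TPM in the KO control, against 708, 708 and 723 TPM in the WT control, and Sox2 had 199, 200.1 and 209 TPM in the KO control, against 218, 217 and 210.4 TPM in the WT control.

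Firre (ENSMUSG00000085396.7, chromosome X, 50555744 to 50635321 on the minus strand, mm10) had 0.515, 0.235 and 0.4204 TPM in the KO control, against 24.7, 24.3 and 23.6 TPM in the WT control. The groups lay far apart. The log2 fold change was -7.63 ± 0.10 (the error of a log2 fold change is its standard error throughout; edgeR adjusted p = 2.85e-66). In the transgene lines Firre averaged 0.895 ± 0.267 TPM in the KO transgene line, against 46.1 ± 0.546 TPM in the WT transgene line (mean ± SD, n = 3 each, as for all transgene line values). Both lines labelled KO were low and both without that label were high.

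Of 17565 genes tested, 6171 (35.1%) differed between the KO and the WT control at an adjusted p below 0.05 by edgeR's quasi-likelihood test with Benjamini-Hochberg adjustment. Of these, 2898 were higher in the KO control (16.5% of the genes tested) and 3273 lower (18.6%). Most differences were small: 1391 genes (7.92%) also reached a size of 0.58 on the log2 scale, 650 of them higher (3.70%) and 741 lower (4.22%). The normalised counts of the groups did not overlap for 8291 genes (47.2%). In each of the 94 genes named by rule below, the TPM of the KO control and the WT control libraries did not overlap either. The rule asked for counts that did not overlap in choosing genes by size of change, so this follows largely from the choice.

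Among genes with a mean CPM (counts scaled to library size) of at least 1 and groups that did not overlap, the largest rises in the KO control included those of Nxf3, Dppa3 and Usp26. Nxf3, an X-linked member of the RNA export factor family (chromosome X, 136072099 to 136085255), had 11.1, 12.3 and 11.01 TPM in the KO control, against 3.197, 2.74 and 3.54 TPM in the WT control (1.96 ± 0.11; edgeR adjusted p = 6.77e-26). Dppa3, which shields DNA methylation in the early embryo and marks naive stem cells and germ cells (chromosome 6, 122626410 to 122630272), had 55.8, 59.2 and 57.7 TPM in the KO control, against 20.4, 19.1 and 21.996 TPM in the WT control (1.52 ± 0.08; edgeR adjusted p = 1.42e-28). In these genes each KO library lay above each WT library. Usp26, an X-linked deubiquitinase gene of the testis, had 17.6, 17.5 and 16.9 TPM in the KO control, against 5.91, 6.09 and 5.49 TPM in the WT control (1.56 ± 0.07; edgeR adjusted p = 7.30e-32). The inflammasome sensor gene Nlrp3, on chromosome 11, rose by 1.77 ± 0.24. Its relative Nlrp4c, known from oocytes, rose by 1.69 ± 0.17, Fam183b by 1.65 ± 0.29 and the immune checkpoint gene Vsir by 1.51 ± 0.23. Their levels were low, with Nlrp3 at 0.879 to 1.08 TPM in the KO control, against 0.242 to 0.355 TPM in the WT control, and Vsir at 0.378 to 0.647 TPM in the KO control, against 0.116 to 0.184 TPM in the WT control.

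Under the same limits, the largest falls apart from Firre included those of Spopfm3, Fgf7 and Meis2. Spopfm3 had 0.877, 1.08 and 0.984 TPM in the KO control, against 3.36, 3.55 and 3.398 TPM in the WT control (-1.81 ± 0.16; edgeR adjusted p = 2.82e-16). Its relatives Spopfm2 (-1.67 ± 0.15) and Tdpoz8 (-1.67 ± 0.15) fell as well. These genes, and Usp17lc below, belong to families of near-identical copies between which reads can be split, so the level of a single copy is uncertain. Fgf7, which encodes a growth factor for epithelial cells, had 0.473, 0.421 and 0.576 TPM in the KO control, against 1.29, 1.35 and 2.02 TPM in the WT control (-1.72 ± 0.24; edgeR adjusted p = 4.19e-09). Meis2, a homeobox gene of limb and neural development (chromosome 2, 115863064 to 116065839), had 0.635, 0.296 and 0.554 TPM in the KO control, against 1.297, 1.17 and 1.16 TPM in the WT control (-1.56 ± 0.18; edgeR adjusted p = 1.97e-11). Both were low, and the KO libraries lay below the WT libraries. The zinc finger gene Zfp352 (-1.55 ± 0.20) and the deubiquitinase gene Usp17lc (-1.55 ± 0.11), both switched on in the 2-cell embryo, were among the largest falls too.

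Among called genes past 0.58 on the log2 scale, the largest rises in TPM were those of Suz12, Mrps24, Cyct and Tex19.1. Suz12, a core subunit gene of Polycomb repressive complex 2 (chromosome 11, 79993106 to 80034123), had 301, 306 and 313 TPM in the KO control, against 181, 181 and 177 TPM in the WT control (0.77 ± 0.03; edgeR adjusted p = 1.54e-33). Cyct, the testis form of cytochrome c, had 130.4, 132 and 145 TPM in the KO control, against 55.8, 57.3 and 53.8 TPM in the WT control (1.28 ± 0.08; edgeR adjusted p = 5.40e-18). Tex19.1, which holds down transposons in germ cells and placenta, had 169.6, 173 and 171 TPM in the KO control, against 100.3, 103 and 104 TPM in the WT control (0.76 ± 0.04; edgeR adjusted p = 8.30e-30). Of these 4 genes, Suz12, Mrps24 and Tex19.1 lie on chromosome 11. Mrps24, a gene of the small subunit of the mitochondrial ribosome, had 277, 263 and 262 TPM in the KO control, against 172, 174 and 173 TPM in the WT control (0.69 ± 0.06). Under the same limit, the largest falls in TPM were those of Apoe, Gsto1, Trh and Eif2s3y. The lipid carrier gene Apoe had 433, 394 and 419 TPM in the KO control, against 663, 647 and 658 TPM in the WT control (-0.59 ± 0.06; edgeR adjusted p = 2.71e-10). Gsto1, a glutathione transferase gene, had 137, 137 and 134 TPM in the KO control, against 210.2, 209 and 207 TPM in the WT control (-0.60 ± 0.03), and Trh, which encodes a hormone precursor, had 90.4, 90.3 and 91.7 TPM in the KO control, against 142, 146 and 149 TPM in the WT control (-0.67 ± 0.04). The differences of these 8 genes were under 1 on the log2 scale except for Cyct and Eif2s3y.

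**Figure D1:**
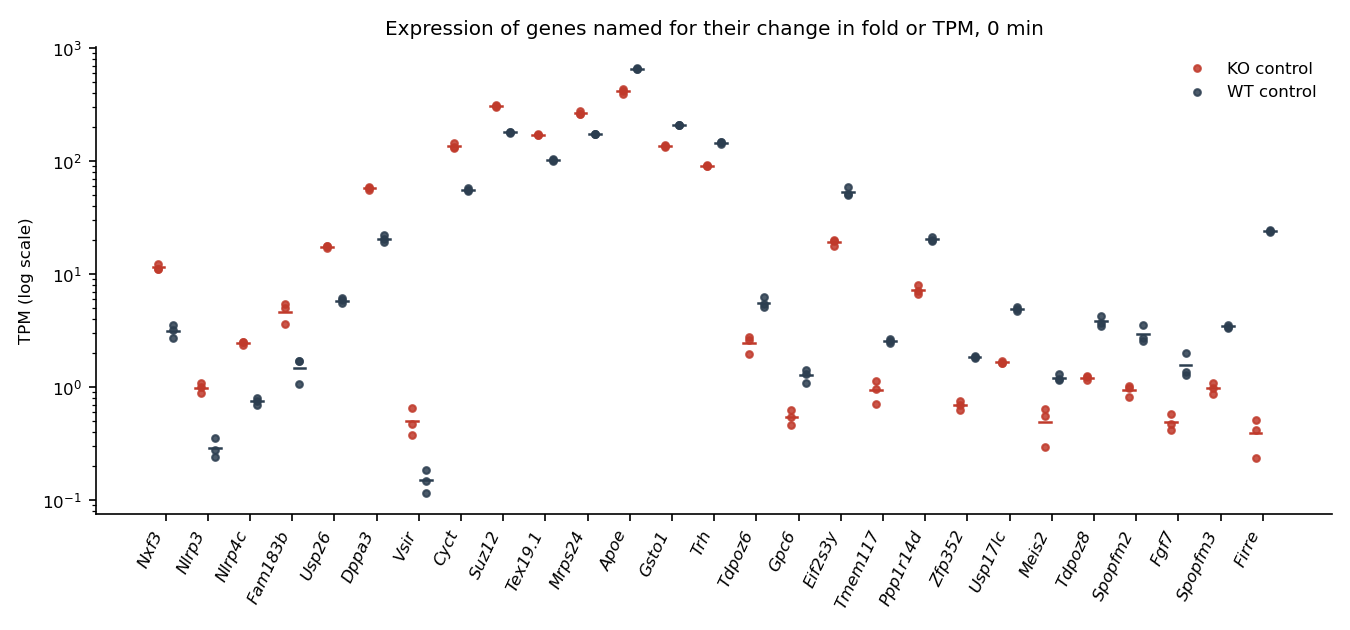
TPM, on a log axis, of 27 genes named for their change in fold, or for their change in TPM among genes past 0.58 on the log2 scale, at 0 min of the long course; each point is 1 library of the KO control (left of each pair) or the WT control (right), and each bar the mean of 3. Genes run in order of log2 fold change, from Nxf3 at 1.96 to Firre at -7.63. The libraries of the groups do not overlap, which the naming rule asked of their counts.

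Chromosome 11 as a whole was higher in the KO control. Of its 1286 genes tested, 1165 had a positive log2 fold change (90.6%), 891 were called higher (69.3%) and 21 lower (1.63%), 912 in all (70.9%), and their median was 0.388, with quartiles at 0.257 and 0.519. The other 18 autosomes had medians between -0.0638 and -0.00919, with 27.1 to 35.3% of their genes called. The rise ran along the chromosome: each of its 13 windows of 10 Mb with at least 20 genes tested had a median between 0.223 and 0.465, against -0.525 to 0.309 in 229 windows elsewhere. Chromosome 11 held 31.8% of the 2804 genes called higher that have a position, and 190 of 632 (30.1%) that also reached 0.58. Outside it, 5073 of 15765 genes were called (32.2%), 1913 higher (12.1%) and 3160 lower (20%).

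Chromosome 11 gave 11.8% of the TPM in each of the 3 KO control libraries, against 9.19, 9.24 and 9.19% in the WT control. The KO transgene line had 11.4, 11.3 and 11.5%, against 8.88, 8.89 and 8.94% in the WT transgene line, and the median of that pair was also 0.388. Both KO lines lay above both WT lines. Later in the long course the KO control averaged 11.6%, 9.82%, 9.80% and 10.1% at 720, 1440, 2880 and 5760 min, against 8.99%, 8.40%, 8.39% and 8.58% in the WT control. In the short course, which has its own libraries, the KO control ranged from 8.89 to 9.19% over 24 libraries, against 8.52 to 8.71% over 24 libraries of the WT control, and the chromosome 11 median at 0 min was 0.0737. The KO transgene line ranged from 8.57 to 8.90% over 24 libraries of that course, against 8.57 to 8.75% over 24 libraries of the WT transgene line, and these ranges overlapped. The excess thus differed in size between the sets, down to overlapping ranges in the last. DNA copy number was not measured, and the part of chromosome 11 in the other differences was not tested.

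**Figure D2:**
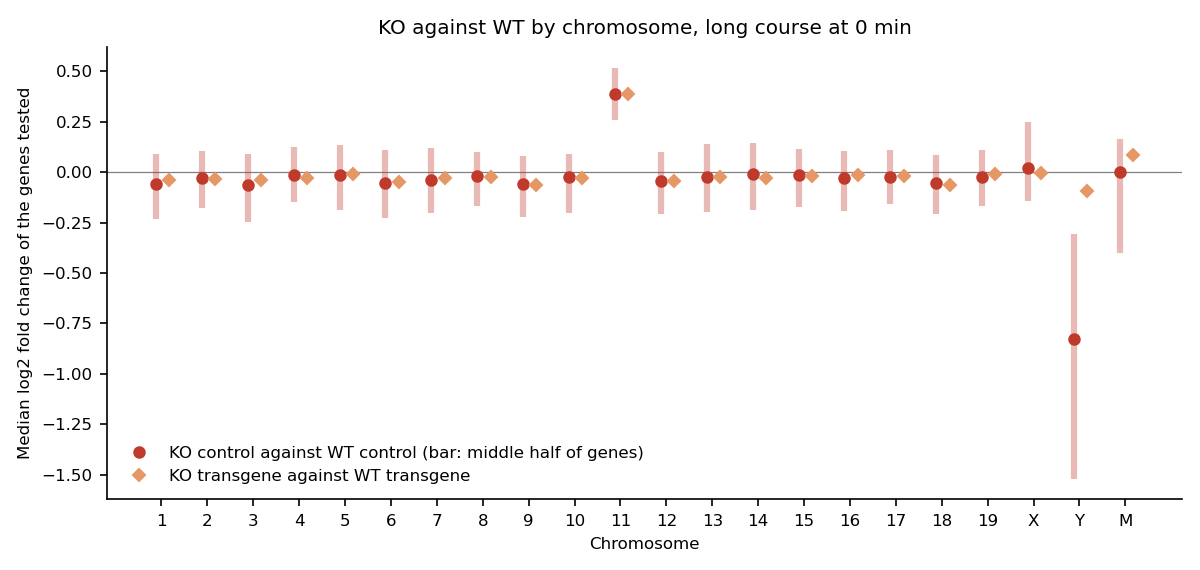
Median log2 fold change of the genes tested on each chromosome at 0 min of the long course, KO over WT, in the control lines (with a bar between the quartiles) and in the transgene lines. Chromosome 11 stands at 0.388 in both pairs, and chromosome Y at -0.829 in the control lines and -0.0958 in the transgene lines.

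Chromosome Y was lower in the KO control. Of 11 genes tested, 0 were called higher and 8 lower, with a median of -0.829, and of the 7 on the list of Y-linked genes, 0 and 6. The median was -0.468 in a fit on only the groups compared, and -0.47 and -0.362 with limma on log2(TPM + 0.1) and log2(TPM + 1). Ddx3y, an RNA helicase gene (chromosome Y, 1260771 to 1286629), had 10.4, 10.1 and 10.2 TPM in the KO control, against 30.1, 29.2 and 29.7 TPM in the WT control (-1.52 ± 0.05; edgeR adjusted p = 2.46e-39). Eif2s3y, a translation initiation factor gene, had 20.1, 19.6 and 17.9 TPM in the KO control, against 51.4, 50.5 and 58.9 TPM in the WT control (-1.42 ± 0.05; edgeR adjusted p = 1.46e-35). The KO libraries lay far below the WT libraries in both. In the transgene lines Ddx3y averaged 22.6 ± 0.908 TPM in the KO transgene line, against 36.4 ± 0.0461 TPM in the WT transgene line (-0.72 ± 0.05), while Eif2s3y was higher in the KO transgene line (0.24 ± 0.05). The fold changes of the pairs of lines differed by -0.80 ± 0.07 for Ddx3y (edgeR adjusted p = 1.45e-15) and by -1.66 ± 0.08 for Eif2s3y (edgeR adjusted p = 1.40e-29).

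Summed over the chromosome, Y-linked genes gave 41.5 to 42.3 TPM in the KO control, against 104 to 113 TPM in the WT control, and 82.6 to 86.9 TPM in the KO transgene line, against 91.9 to 96.3 TPM in the WT transgene line. In the short course at 0 min the order was the reverse, with a mean of 144 TPM in the KO control, against 103 TPM in the WT control (n = 2 each). The level of the Y chromosome therefore differed between sets of libraries that carry the same genotype label. In bulk RNA, fewer cells with the chromosome and less of its RNA per cell cannot be told apart.

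**Figure D3:**
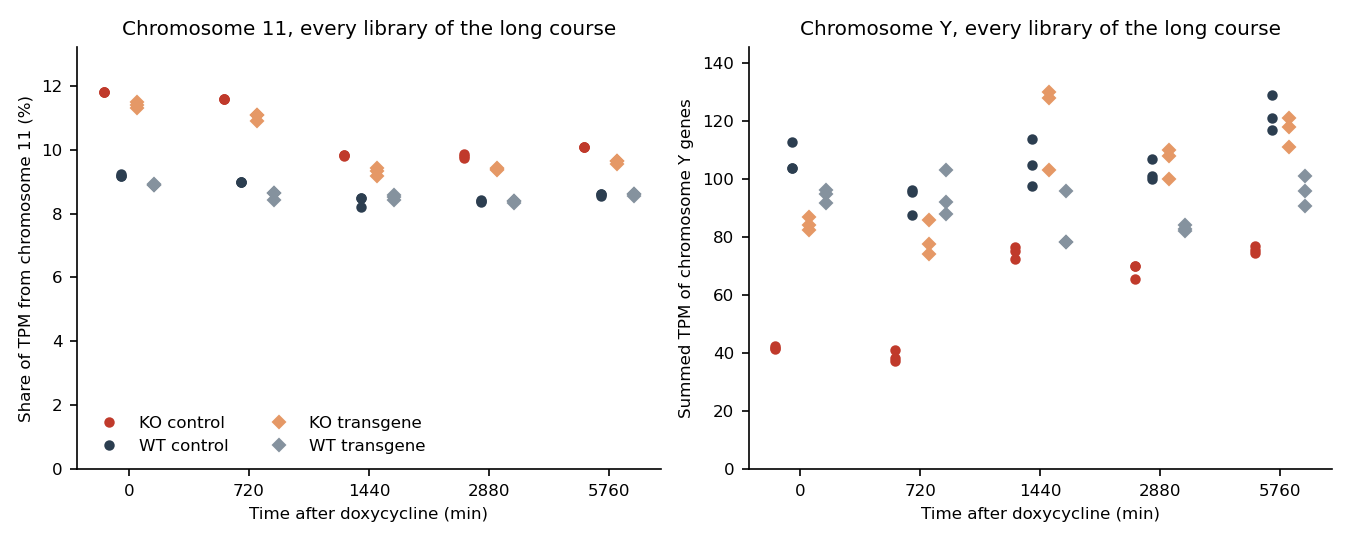
Share of TPM from chromosome 11 (%, left) and summed TPM of chromosome Y genes (right) in each library of the long course, by min after doxycycline (times evenly spaced), for the 4 lines. At 0 min the KO lines lie at 11.3 to 11.8% and the WT lines at 8.88 to 9.24% on the left, and the KO control lies at 41.5 to 42.3 TPM on the right, below the other lines.

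The transgene lines share no library with the control lines. KO transgene against WT transgene called 6089 genes (34.7%), 2794 higher (15.9%) and 3295 lower (18.8%). Of these, 3971 were called in both pairs, 3877 of them in the same direction (1903 higher and 1974 lower) and 94 in opposite directions. The 3877 genes are 62.8% of the calls in the control lines and 63.7% of those in the transgene lines. With a size of at least 0.58 in both, 552 genes went the same way, 39.7% of such calls in the control lines and 45.1% in the transgene lines, where 6.97% of all genes had such a call, 4.67% higher and 2.29% lower. The fold changes of the pairs themselves differed for 1146 genes (6.52%), with 3.14% above and 3.39% below 0 in the control minus the transgene lines. Of these 310 differed by at least 0.58 (1.76%), 59 above (0.336%) and 251 below 0 (1.43%).

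The genes largest in both pairs included most of the rises named above. They were chosen among genes called the same way in both pairs, by the smaller of both sizes. Their calls in the transgene lines therefore follow from the choice and are not a separate repeat. Dppa3 averaged 40.7 ± 1.95 TPM in the KO transgene line, against 11.4 ± 1.13 TPM in the WT transgene line (1.82 ± 0.09; edgeR adjusted p = 4.64e-30). Nxf3 averaged 8.05 ± 1.22 TPM in the KO transgene line, against 1.73 ± 0.2696 TPM in the WT transgene line (2.10 ± 0.12). The difference between the pairs was not called for Dppa3 (edgeR adjusted p = 0.127) or Nxf3 (edgeR adjusted p = 0.746). Usp26 rose more in the transgene lines, 2.55 ± 0.08, and the difference between the pairs was -0.99 ± 0.11 (edgeR adjusted p = 3.99e-11). Nlrp3 (2.30 ± 0.27) and Nlrp4c (1.56 ± 0.18) rose there as well. Of the falls, Meis2 averaged 0.8796 ± 0.162 TPM in the KO transgene line, against 3.0004 ± 0.0582 TPM in the WT transgene line (-1.93 ± 0.15; edgeR adjusted p = 3.75e-19). Ppp1r14d, a gene for an inhibitor of protein phosphatase 1, had 6.66, 7.14 and 7.95 TPM in the KO control, against 19.5, 20.1 and 21.4 TPM in the WT control (-1.47 ± 0.09), and fell by 1.34 in the transgene lines. The membrane protein gene Tmem117 had 0.969, 1.13 and 0.707 TPM in the KO control, against 2.57, 2.67 and 2.46 TPM in the WT control (-1.43 ± 0.14 in the control and -1.30 ± 0.13 in the transgene lines). Tdpoz6 (-1.21 ± 0.14 and -1.36 ± 0.14) and the glypican gene Gpc6 (-1.26 ± 0.16 and -1.15 ± 0.15) fell in both too.

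Other large falls differed between the pairs of lines. Fgf7 changed by -0.32 ± 0.24 in the transgene lines (edgeR adjusted p = 0.318), and its difference between the pairs was -1.40 ± 0.34 (edgeR adjusted p = 0.00348). Tdpoz8 (-1.55 ± 0.21), Usp17lc (-1.46 ± 0.15) and Zfp352 (-1.36 ± 0.28) also differed between the pairs, with transgene values of -0.12 ± 0.15, -0.10 ± 0.11 and -0.19 ± 0.19. Between lines of the same genotype at 0 min, WT transgene against WT control called 2312 genes, and KO transgene against KO control called 622.

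**Figure D4:**
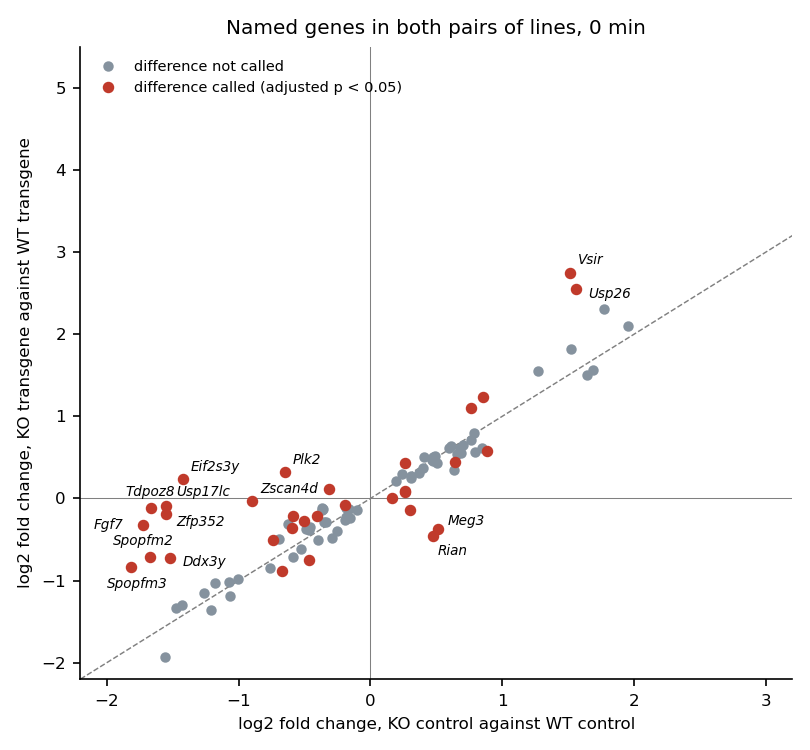
Log2 fold change of 93 named genes, all but Firre, in KO control against WT control (x axis) and KO transgene against WT transgene (y axis) at 0 min; colour marks genes whose difference between the pairs was called, and the line marks equal change. Most points lie near the line, while Tdpoz8, Usp17lc and Zfp352 lie near 0 on the y axis and Eif2s3y, Plk2, Meg3 and Rian have opposite signs in the pairs.

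The control lines were also compared in other libraries. In the short course at 0 min, with 2 libraries each, 1353 of 18009 genes were called (7.51%; 3.41% higher and 4.1% lower), 283 of them with a size of at least 0.58 (1.57%; 0.711% higher and 0.861% lower). Without KO control replicate 1, 454 genes were called in all and 140 with the size, and without WT control replicate 1, 418 and 162. Of the 93 named genes without Firre, 26 were called in the same direction and 2 in the opposite one. Usp26 was higher there too (0.76 ± 0.12; edgeR adjusted p = 9.20e-06), while Dppa3 (0.39 ± 0.17; edgeR adjusted p = 0.152) and Nxf3 (0.10 ± 0.18; edgeR adjusted p = 0.828) did not pass the test. In the long course, 6038, 3019, 3594 and 4046 of 17565 genes were called at 720, 1440, 2880 and 5760 min. Of these, 2792, 1560, 1814 and 2045 were higher in the KO control. Of the 93 genes, 90, 61, 60 and 66 were called in the same direction at these times, and 0, 1, 1 and 0 in the opposite one. The 93 genes were chosen by their values in the long course at 0 min, so their repeat calls do not stand for those of all genes. Dppa3, for example, had log2 fold changes of 1.39, 1.03, 0.39 and 0.30, and Meis2 of -1.33, -0.63, -0.57 and -0.52.

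Pathways were described with 38 gene lists holding 596 different genes, of which 530 were tested, 38 had counts under the filter and 28 had no match in the table. Each list is read against the 16.5% called higher and 18.6% called lower over all genes, whose median log2 fold change was -0.0141. Where a list has few calls, further members are named, and these were chosen after their values were seen.

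Genes of the 2-cell-like state, a rare and passing condition of stem cells that switches on genes of the 2-cell embryo, were lower in the KO control. Of 20 members tested, 0 were higher and 19 lower, with a median of -1.1. Zscan4d, of a gene cluster that acts on telomeres and marks the state, had 9.85, 10.2 and 10.3 TPM in the KO control, against 19.3, 18.9 and 17.5 TPM in the WT control (-0.90 ± 0.06; edgeR adjusted p = 7.88e-22). Usp17lc had 1.63, 1.65 and 1.72 TPM in the KO control, against 5.12, 4.67 and 4.87 TPM in the WT control (edgeR adjusted p = 3.25e-21). The KO libraries lay below the WT libraries in both. In the transgene lines 0 members were higher and 2 lower (median -0.0636). Zscan4d averaged 14.2 ± 0.498 TPM in the KO transgene line, against 14.001 ± 0.5499 TPM in the WT transgene line (-0.03 ± 0.06; edgeR adjusted p = 0.753). In the control lines of the short course at 0 min, 2 members were higher and 0 lower (median -0.0323). The fold changes differed between the long-course pairs for 14 of the members, for Zscan4d by -0.87 ± 0.09 (edgeR adjusted p = 5.40e-13). Many members are near-identical copies, and their counts are not independent. Fewer cells in the state and less RNA in each cannot be told apart in these bulk libraries.

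Germline genes are held down in stem cells by DNA methylation and by a Polycomb-related complex with E2F6, MGA and MAX. Of 21 members tested, 10 were higher and 1 lower in the KO control (median 0.303), and 17 were higher and 0 lower in the KO transgene line (median 0.751). The control lines of the short course at 0 min gave 5 higher and 1 lower (median 0.163). Dazl, which binds and regulates germ cell mRNAs (chromosome 17, 50279395 to 50293636), had 106, 99.2 and 102 TPM in the KO control, against 56.2, 56.7 and 59.4 TPM in the WT control (0.85 ± 0.04; edgeR adjusted p = 1.61e-27). In the transgene lines it rose by 1.24 ± 0.05, more than in the control lines (edgeR adjusted p = 1.13e-05 for the difference). Dazl was not called in the control lines of the short course at 0 min (0.10 ± 0.08; edgeR adjusted p = 0.469). Later in the long course it was called at 720 and 5760 min (0.72 and 0.25) and not at 1440 and 2880 min (0.08 and 0.13). Tdrd12, a gene of the piRNA pathway, which silences transposons, had 103, 99.8 and 109 TPM in the KO control, against 66.7, 66.3 and 68.4 TPM in the WT control (0.65 ± 0.04; edgeR adjusted p = 1.40e-24). The KO libraries lay above the WT libraries in both genes. Among the other members, Rhox2a and Rhox5, of an X-linked homeobox cluster, and Tex11, an X-linked meiotic gene, were also higher. Rhox5 had 46.2, 46.3 and 45.5 TPM in the KO control, against 24.8, 24.9 and 28.8 TPM in the WT control (0.82 ± 0.07; edgeR adjusted p = 3.10e-18). Rhox2a rose by 1.63 ± 0.32, the largest value of the list, but is 1 of several near-identical copies, so its own level is uncertain, and Tex11 rose by 0.30 ± 0.09. Hormad1, of the meiotic chromosome axis, had 88.3, 93.4 and 98.5 TPM in the KO control, against 74.3, 71.7 and 76.5 TPM in the WT control (0.32 ± 0.07). Ddx4, a germ cell helicase gene, had 10.9, 10.2 and 10.6 TPM in the KO control, against 9.46, 9.06 and 8.76 TPM in the WT control (0.20 ± 0.06), and Mael, of the piRNA pathway, rose by 0.36 ± 0.10. Sycp1, of the synaptonemal complex, had 10.1, 9.62 and 8.71 TPM in the KO control, against 7.19, 9.07 and 8.08 TPM in the WT control (0.49 ± 0.09), and the meiotic cohesin gene Stag3 had 14.9, 14.5 and 10.8 TPM in the KO control, against 12.3, 11.6 and 10.9 TPM in the WT control (0.26 ± 0.06). In Sycp1 and Stag3 the TPM of the groups overlapped, although the count test called both (edgeR adjusted p = 4.17e-06 for Sycp1 and edgeR adjusted p = 2.83e-04 for Stag3). The member called lower was Tdrd1, also of the piRNA pathway (-0.65 ± 0.25; edgeR adjusted p = 0.0373), and no member was called lower by DESeq2, without the low-count filter, or without KO control replicate 2, WT control replicate 1 or WT control replicate 3. Rhox2a, Rhox5, Tex11, Hormad1, Ddx4, Mael, Sycp1, Stag3 and Tdrd1 were chosen after their values were seen.

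Promoters are shown for the germline list because, among the lists, it had the largest share of windows with the E-box CACGTG, to which MAX binds with its partners, so that share is a description only. RefSeq windows on GRCm38.p6, from 250 bases before to 50 after each start, were searched on both strands. CACGTG was in 10 of the 17 germline genes with a window (58.8%), against 2187 of 27025 genes in all (8.09%). TCCCGC, a pattern of the E2F family, was in 7 of the 17 (41.2%), against 5959 genes in all (22%), and other lists had larger shares, such as 63.2% of G1/S genes and 61.5% of immediate early genes. CACGTG and TCCCGC can share 1 end base and were counted apart. Among germline genes, 5 of the 9 called higher, 4 of the 7 not called and the 1 called lower held CACGTG. Below are Dazl, which held neither pattern, and the 5 genes called higher with CACGTG, each 5′ to 3′ on its own strand with CACGTG in capitals.
Dazl, chr17:50293571-50293870, minus strand: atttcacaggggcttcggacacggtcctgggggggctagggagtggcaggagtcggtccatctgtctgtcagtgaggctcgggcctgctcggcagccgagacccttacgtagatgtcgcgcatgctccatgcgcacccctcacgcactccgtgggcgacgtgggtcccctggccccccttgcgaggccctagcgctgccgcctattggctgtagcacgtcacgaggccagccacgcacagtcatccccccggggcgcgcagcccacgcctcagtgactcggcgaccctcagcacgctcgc
Ddx4, chr13:112652261-112652560, minus strand: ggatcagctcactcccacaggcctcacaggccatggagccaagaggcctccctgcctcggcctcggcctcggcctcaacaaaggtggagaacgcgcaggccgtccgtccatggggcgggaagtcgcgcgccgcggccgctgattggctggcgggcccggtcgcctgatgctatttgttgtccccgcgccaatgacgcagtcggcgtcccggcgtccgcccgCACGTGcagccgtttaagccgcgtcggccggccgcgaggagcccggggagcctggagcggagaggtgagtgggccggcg
Hormad1, chr3:95559427-95559726, plus strand: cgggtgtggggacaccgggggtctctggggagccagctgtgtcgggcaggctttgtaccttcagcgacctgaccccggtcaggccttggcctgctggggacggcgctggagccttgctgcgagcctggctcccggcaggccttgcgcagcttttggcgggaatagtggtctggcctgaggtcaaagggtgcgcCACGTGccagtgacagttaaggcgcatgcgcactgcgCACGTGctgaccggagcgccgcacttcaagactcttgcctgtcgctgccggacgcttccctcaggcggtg
Mael, chr1:166238695-166238994, minus strand: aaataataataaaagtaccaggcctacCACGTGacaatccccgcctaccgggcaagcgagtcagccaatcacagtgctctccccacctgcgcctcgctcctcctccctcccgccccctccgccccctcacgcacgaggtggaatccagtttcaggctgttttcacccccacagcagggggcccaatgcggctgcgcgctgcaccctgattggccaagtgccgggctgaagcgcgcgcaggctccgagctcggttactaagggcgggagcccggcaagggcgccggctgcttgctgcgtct
Stag3, chr5:138280259-138280558, plus strand: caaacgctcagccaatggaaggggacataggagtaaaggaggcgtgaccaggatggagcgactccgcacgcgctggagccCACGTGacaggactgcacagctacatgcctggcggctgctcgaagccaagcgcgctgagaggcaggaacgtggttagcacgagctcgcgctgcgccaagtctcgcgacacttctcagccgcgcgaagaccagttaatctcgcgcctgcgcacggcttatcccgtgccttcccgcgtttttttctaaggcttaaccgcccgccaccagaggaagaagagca
Sycp1, chr3:102936051-102936350, minus strand: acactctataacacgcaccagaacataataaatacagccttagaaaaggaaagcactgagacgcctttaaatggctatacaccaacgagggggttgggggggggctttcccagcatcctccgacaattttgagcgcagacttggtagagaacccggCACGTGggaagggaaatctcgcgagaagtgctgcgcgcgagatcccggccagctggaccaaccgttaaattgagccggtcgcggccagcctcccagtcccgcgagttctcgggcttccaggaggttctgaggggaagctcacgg
Hormad1 held CACGTG at 2 places and the other genes with it at 1. The first base of the first CACGTG lay at -29 from the start in Ddx4, -57 in Hormad1, -94 in Sycp1, -170 in Stag3 and -223 in Mael. A match of letters is a description and not a measured binding site.

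Imprinted genes are expressed mainly from 1 parental copy, set by DNA methylation from the germ line. Of 23 paternally expressed members tested, 12 were higher and 2 lower in the KO control (median 0.315), and 9 were higher and 5 lower in the KO transgene line (median 0.164). Mest, named for its expression in mesoderm (chromosome 6, 30723547 to 30748465), had 64.5, 62.8 and 55.8 TPM in the KO control, against 33.3, 32.3 and 33.3 TPM in the WT control (0.89 ± 0.04; edgeR adjusted p = 3.34e-31). Zrsr1, a splicing factor gene on chromosome 11 that lies inside another gene, had 25.1, 25.4 and 26.6 TPM in the KO control, against 15.7, 14.9 and 15.1 TPM in the WT control (0.79 ± 0.04). Both also rose in the transgene lines, Mest by 0.57 ± 0.04 and Zrsr1 by 0.80 ± 0.05. Of 17 maternally expressed members, 6 were higher and 4 lower (median 0.138), and 3 were higher and 6 lower in the transgene lines (median -0.0743). The members lower in the control lines were Slc22a3, Ppp1r9a (-0.31 ± 0.06), Cobl (-0.22 ± 0.03) and Ube3a (-0.10 ± 0.04), and 2 were called lower without KO control replicate 1 or without KO control replicate 2. Slc22a3, an organic cation transporter gene, was listed at 0 TPM in all 3 KO control libraries, against 0.0414, 0.0355 and 0.0215 TPM in the WT control (edgeR adjusted p = 0.0171), levels that rest on few reads, so no fold is given. The noncoding RNAs Meg3 and Rian come from 1 imprinted cluster. Meg3 had 66.3, 72.3 and 65.6 TPM in the KO control, against 48.6, 53.04 and 45.7 TPM in the WT control (0.51 ± 0.04), and Rian had 196, 204 and 191 TPM in the KO control, against 134, 142 and 139.8 TPM in the WT control (0.48 ± 0.04). In the transgene lines both were lower in KO, Meg3 by 0.37 and Rian by 0.46, so their direction turned between the pairs. Among the other members, Dlk1 (1.16 ± 0.24) and Nnat (0.92 ± 0.10) rose most, and Igf2 (-0.80 ± 0.21) and Peg10 (-0.39 ± 0.07) were the paternally expressed genes called lower.

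Genes that write or remove DNA methylation moved both ways: of 9 tested, 4 were higher and 3 lower. Dnmt3a, a de novo methyltransferase gene, had 45.5, 44.1 and 44.5 TPM in the KO control, against 26.7, 27.8 and 26.9 TPM in the WT control (0.68 ± 0.03; edgeR adjusted p = 2.18e-28). Dnmt3l, which encodes its cofactor without catalytic activity, had 121, 119 and 119 TPM in the KO control, against 167, 169 and 164 TPM in the WT control (-0.47 ± 0.03; edgeR adjusted p = 7.11e-21). Tet3, Dnmt3b and Tdg were the others higher, and Tet2 and Uhrf1 the others lower. The transgene lines gave 0.61 ± 0.03 for Dnmt3a and -0.75 ± 0.03 for Dnmt3l.

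Polycomb complexes modify histones at silent genes. Of 12 genes of Polycomb repressive complex 2, 4 were higher and 4 lower, and its 3 members on chromosome 11, Suz12, Ezh1 and Epop, were among the higher. The fourth was Phf19, and those lower were Eed, Aebp2, Rbbp7 and Jarid2. Ezh1, the less active of its methyltransferase genes, had 16.4, 16.9 and 15.3 TPM in the KO control, against 11.99, 10.6 and 10.7 TPM in the WT control (0.59 ± 0.05), and rose by 0.61 ± 0.05 in the transgene lines, as Suz12 did by 0.71 ± 0.03. Of 18 genes of Polycomb repressive complex 1, 4 were higher, 2 of them on chromosome 11, and 3 lower. Bmi1 had 8.47, 10.3 and 9.597 TPM in the KO control, against 15.9, 16.7 and 16.6 TPM in the WT control (-0.69 ± 0.06; edgeR adjusted p = 1.16e-16), while its relative Pcgf2, on chromosome 11, rose by 0.41 ± 0.04. Cbx2, Pcgf5 and Phc1 were the others higher, and Phc2 and Rybp the others lower. Without KO control replicate 3, or without WT control replicate 2, 1 member of this complex was called lower.

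Of 19 tested genes around the Firre locus, 9 were higher and 2 lower (median 0.118), with Usp26 the largest rise. The transgene lines gave 6 higher and 5 lower (median 0.104). In the control lines of the short course at 0 min, 1 was higher and 3 were lower (median -0.0964). Gpc4, a glypican gene, had 26.3, 25.4 and 26.4 TPM in the KO control, against 36.2, 38.3 and 34.1 TPM in the WT control (-0.46 ± 0.04; edgeR adjusted p = 3.12e-15). The KO libraries lay below the WT libraries. Of 5 genes reported as contacts of the Firre locus on other chromosomes, 1 was higher and 2 were lower. Slc25a12, a mitochondrial carrier gene, had 41.9, 42.2 and 38.6 TPM in the KO control, against 34.8, 32.8 and 36.2 TPM in the WT control (0.31 ± 0.04; edgeR adjusted p = 5.02e-09). The stress response factor gene Atf4 was lower by 0.10 (edgeR adjusted p = 0.00242), a call that missed the threshold with no filter on low counts (edgeR adjusted p = 0.0587), and the elongation factor gene Eef1a1 changed by -0.06 ± 0.02 (edgeR adjusted p = 0.0228). Of this list, 1 gene was called lower on leaving out any 1 library and 0 with no filter, and 2 were called higher with no filter, with only the groups compared, and without KO control replicate 2 or WT control replicate 1.

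Of 18 genes for the nuclear matrix, cohesin and other Firre partners, 1 was higher and 9 were lower (median -0.0872), and the transgene lines gave 1 and 9. The cohesin gene Stag1 had 34.9, 32.6 and 33.3 TPM in the KO control, against 45.5, 44.1 and 45.8 TPM in the WT control (-0.35 ± 0.04; edgeR adjusted p = 1.50e-13), and the lamin gene Lmnb1 had 184, 190.0 and 185 TPM in the KO control, against 215, 217 and 207 TPM in the WT control (-0.19 ± 0.02). Hnrnpu did not pass the test (0.01 ± 0.02; edgeR adjusted p = 0.869).

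Of 7 genes of the X inactivation centre tested, 1 was higher and 1 lower. Rlim, a ubiquitin ligase gene that activates Xist, had 25.1, 25.3 and 25.5 TPM in the KO control, against 21.1, 22.1 and 22.5 TPM in the WT control (0.20 ± 0.04; edgeR adjusted p = 8.19e-06). Tsix, the antisense partner of Xist, was lower by 0.36 (edgeR adjusted p = 0.0247), and without strand its reads cannot be told apart from those of Xist. That call was lost in 8 of 14 alternative settings. Among them were the fit without WT control replicate 1 (edgeR adjusted p = 0.169) and that with no filter on low counts (edgeR adjusted p = 0.0669). Leaving out WT control replicate 3 or any 1 of the KO control libraries also lost it (edgeR adjusted p of 0.0534 to 0.0971).

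Pluripotency genes moved by small amounts. Of 12 general members, 0 were higher and 3 lower (median -0.0493), against 0 higher and 10 lower in the transgene lines (median -0.104). Pou5f1, the central pluripotency factor gene, had 928, 909 and 916 TPM in the KO control, against 1057, 1062 and 1028 TPM in the WT control (-0.17 ± 0.04; edgeR adjusted p = 5.52e-05; limma on log2(TPM + 1) gave an adjusted p of 0.094), and the RNA-binding protein gene Lin28a had 108, 106 and 102 TPM in the KO control, against 119, 119 and 117 TPM in the WT control (-0.15 ± 0.03). Of 16 naive members, 2 were higher and 10 lower (median -0.133), against 1 higher and 8 lower in the transgene lines. Tbx3, a naive transcription factor gene, had 39.1, 39.8 and 39.3 TPM in the KO control, against 54.3, 57.8 and 51.98 TPM in the WT control (-0.50 ± 0.04; edgeR adjusted p = 3.11e-20), and the lysosomal enzyme gene Manba had 97.1, 88.4 and 100.0 TPM in the KO control, against 138, 133 and 129 TPM in the WT control (-0.52 ± 0.03). Of 13 genes of the formative and primed epiblast, 6 were higher and 2 lower. Lef1, a Wnt pathway factor gene, had 8.11, 8.02 and 8.99 TPM in the KO control, against 4.66, 4.67 and 4.81 TPM in the WT control (0.85 ± 0.10; edgeR adjusted p = 5.08e-11), and the ETS factor gene Etv5 rose by 0.26 ± 0.03. The members called lower were Otx2, a homeobox gene that drives the exit from the naive state (-1.11 ± 0.24), and Nodal (-0.16 ± 0.04). The naive genes called higher were Pramel6 (0.46 ± 0.17) and Pramel7 (0.43 ± 0.10), and 1 naive gene was called higher without KO control replicate 1 or 3 or WT control replicate 1. One general gene was called higher without KO control replicate 3 or WT control replicate 2.

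Genes of early lineages were described by list. Of 16 trophoblast genes, 1 was higher and 8 were lower (median -0.353), with 5 lower without KO control replicate 3, and 0 higher without KO control replicate 2 or WT control replicate 1. Of 14 primitive endoderm genes, 0 were higher and 6 lower (median -0.265). The transgene lines had 3 trophoblast genes higher and 5 lower (median -0.0199), and 1 primitive endoderm gene higher and 5 lower (median 0.0424). Eomes, a factor gene of trophoblast and mesendoderm, had 1.88, 2.17 and 1.88 TPM in the KO control, against 4.69, 4.44 and 3.99 TPM in the WT control (-1.07 ± 0.09; edgeR adjusted p = 2.27e-17), and fell by 1.02 in the transgene lines. The trophoblast gene Plet1 fell by 0.59, and the laminin genes Lamc1 and Lama1 fell by 0.46 and 0.49. Of 10 mesendoderm genes, 0 were higher and 2 lower, Eomes and Snai1 (-0.63 ± 0.15), with a median of 0.0664 against 0.103 in the transgene lines. Of 10 neuroectoderm genes, 6 were higher and 3 lower (median 0.253). The intermediate filament gene Nes had 4.14, 4.46 and 4.22 TPM in the KO control, against 3.22, 3.18 and 2.99 TPM in the WT control (0.49 ± 0.05), beside the falls of Meis2, Sox1 (-0.93 ± 0.13) and Ncam1 (-0.23 ± 0.06). Of 9 markers of fibroblasts or feeder cells tested, 2 were higher and 3 lower, and 6 more were under the filter on low counts. No marker was called higher without KO control replicate 1, and 1 was without KO control replicate 2, WT control replicate 1 or WT control replicate 3. Pdgfrb, a defining fibroblast receptor gene, stood at 0.1702 to 0.212 TPM in the KO control, against 0.338 to 0.447 TPM in the WT control. Fn1, which encodes the matrix protein fibronectin, fell by 0.19. Both are among the 3 markers called lower, and the highest log2 fold change of the list was 0.283.

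**Figure D5:**
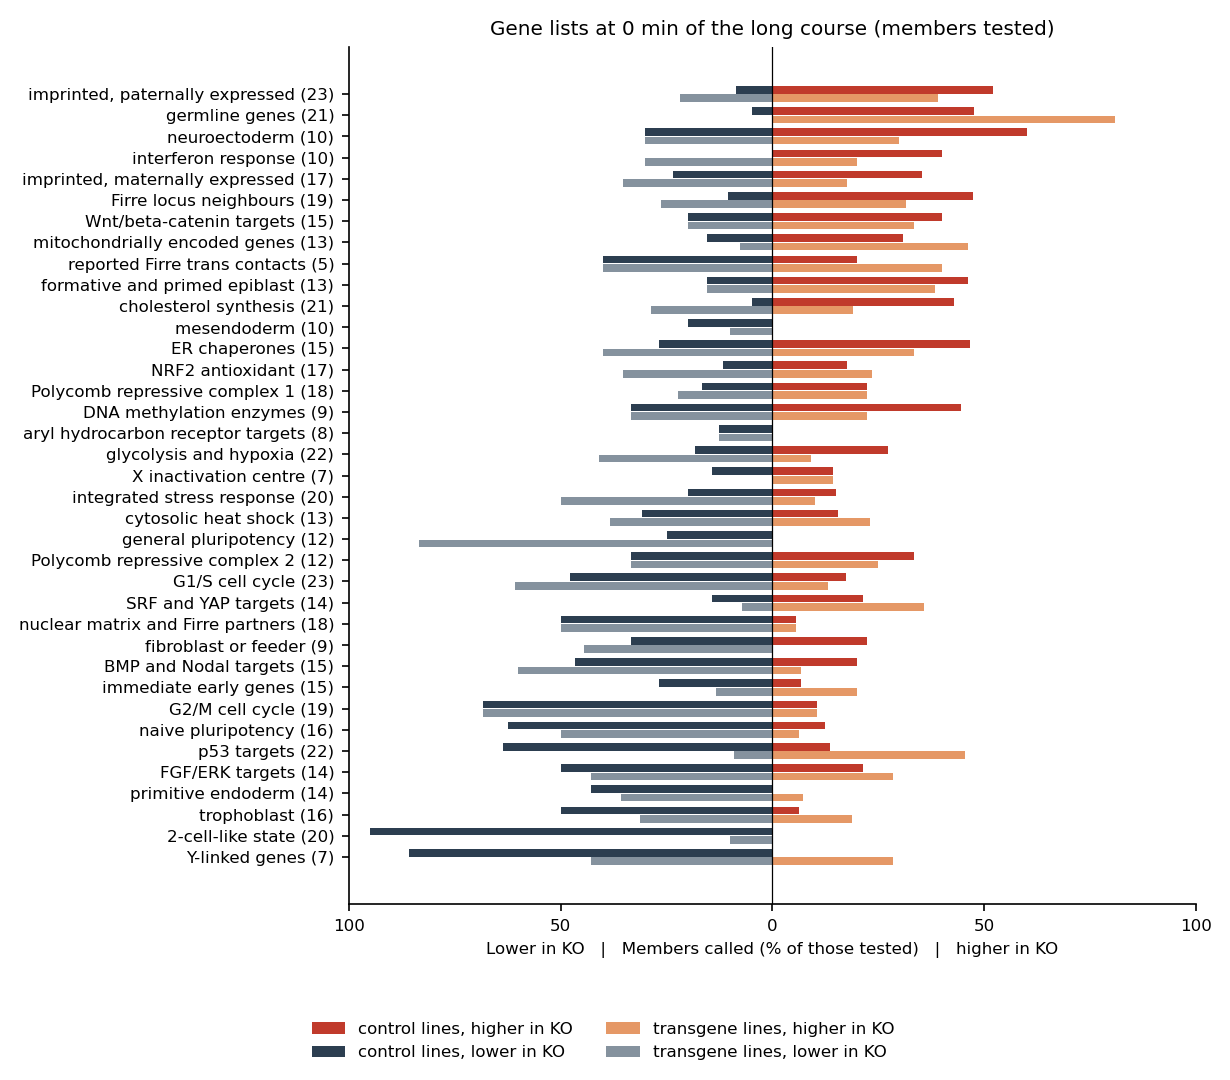
Share of the tested members (%) called higher or lower in KO at 0 min, for 37 gene lists in the control lines and in the transgene lines, ordered by the median log2 fold change in the control lines. In the 2-cell-like list 19 of 20 members are lower in the control lines and 2 in the transgene lines, and in the germline list 10 and 17 of 21 are higher.

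Targets of signalling pathways moved both ways. Of 15 Wnt targets, 6 were higher, 3 of them on chromosome 11, and 3 lower. Notum, a secreted Wnt inhibitor gene on chromosome 11, had 75.3, 69.4 and 66.4 TPM in the KO control, against 42.6, 49.4 and 40.8 TPM in the WT control (0.71 ± 0.04). The homeobox gene Cdx1 had 7.81, 7.39 and 6.66 TPM in the KO control, against 17.4, 16.4 and 16.3 TPM in the WT control (-1.18 ± 0.07; edgeR adjusted p = 6.19e-25). Of 14 FGF/ERK targets, 3 were higher and 7 lower (median -0.167). Etv1, an ETS factor gene, had 7.39, 7.63 and 8.54 TPM in the KO control, against 12.2, 14.2 and 12.2 TPM in the WT control (-0.76 ± 0.06), and Spred2, a pathway inhibitor gene on chromosome 11, rose by 0.47 ± 0.04. Spry4, a feedback inhibitor gene, fell most (-1.05 ± 0.13). Of 15 BMP and Nodal targets, 3 were higher and 7 lower. Fst, which encodes the activin antagonist follistatin, had 6.29, 4.91 and 4.51 TPM in the KO control, against 11.9, 11.3 and 10.004 TPM in the WT control (-1.07 ± 0.07; edgeR adjusted p = 5.02e-21), and Skil, a brake on SMAD signalling, rose by 0.51 ± 0.04, as did the Nodal antagonist genes Lefty1 (0.55 ± 0.07) and Lefty2 (0.44 ± 0.04). Of 14 SRF and YAP targets, 3 were higher, with the actin gene Actg1 on chromosome 11 (0.48 ± 0.03), and 2 lower, with Amotl2 (-0.40 ± 0.04). Of 15 immediate early genes, 1 was higher and 4 were lower, such as the phosphatase gene Dusp1 (-0.29 ± 0.05) and Btg2 (-0.31 ± 0.05). Of 8 aryl hydrocarbon receptor targets, 0 were higher and 1 lower, Tiparp (-0.26 ± 0.05).

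Targets of p53 went opposite ways in the pairs of lines. Of 22 members, 3 were higher and 14 lower in the KO control (median -0.139), and 10 were higher and 2 lower in the KO transgene line (median 0.106). The difference between the pairs was called for 15 of them. Plk2, a kinase gene, had 17.7, 16.9 and 16.7 TPM in the KO control, against 28.96, 28.2 and 27.9 TPM in the WT control (-0.65 ± 0.05; edgeR adjusted p = 6.44e-21). In the transgene lines Plk2 averaged 19.5 ± 1.2996 TPM in the KO transgene line, against 15.4 ± 1.08 TPM in the WT transgene line (0.32 ± 0.05), and the pairs differed by -0.98 ± 0.07 (edgeR adjusted p = 2.17e-20). Pmaip1, which encodes the cell death protein NOXA, had 22.5, 23.5 and 22.4 TPM in the KO control, against 39.9, 38.9 and 36.4 TPM in the WT control (-0.74 ± 0.05), and fell by 0.50 in the transgene lines. Trp53 and Ccng1, the 2 members on chromosome 11, were among the higher in the control lines.

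Cell cycle genes were lower by small amounts in both pairs of lines in the long course. Of 19 G2/M genes, 2 were higher and 13 lower in the control lines (median -0.132), and the transgene lines gave 2 and 13. The ubiquitin-conjugating enzyme gene Ube2c had 199, 211 and 209.8 TPM in the KO control, against 264, 269 and 265 TPM in the WT control (-0.34 ± 0.03). Both higher members, Aurkb and Top2a (0.31 ± 0.03), lie on chromosome 11. Of 23 G1/S genes, 4 were higher and 11 lower, and 3 and 14 in the transgene lines. The replication licensing gene Cdc6, on chromosome 11, rose by 0.40 ± 0.03, and the cyclin gene Ccnd1 by 0.30 ± 0.04. Ccnd1 was lower in the transgene lines (-0.14 ± 0.04; edgeR adjusted p = 0.00148), and the pairs differed by 0.44 ± 0.05 (edgeR adjusted p = 4.04e-10). It was also lower in the control lines of the short course at 0 min (-0.18 ± 0.05; edgeR adjusted p = 0.00802). In that comparison 1 G2/M gene was higher and 1 lower (median 0.0812), and 0 G1/S genes were higher and 8 lower (median -0.118).

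Stress lists had small medians. Of 20 integrated stress response genes, 3 were higher and 4 lower, and 2 were higher and 10 lower in the transgene lines (median -0.129). Asns, asparagine synthetase, had 502, 475 and 521 TPM in the KO control, against 691, 649.6 and 665 TPM in the WT control (-0.40 ± 0.03; edgeR adjusted p = 1.43e-21), and the serine synthesis gene Psat1 rose by 0.17 ± 0.03. Of 15 genes for chaperones and the unfolded protein response of the endoplasmic reticulum, 7 were higher and 4 lower. Xbp1, the response's transcription factor gene, had 76.8, 77.5 and 78.6 TPM in the KO control, against 48.9, 49.9 and 49.2 TPM in the WT control (0.66 ± 0.04; edgeR adjusted p = 1.05e-26), and Canx, on chromosome 11, rose by 0.47 ± 0.03. Xbp1 rose in the transgene lines too (0.55 ± 0.04). Its identifier had no match in the gene annotation, so it was not placed on a chromosome and may not be read as lying outside chromosome 11. Of 13 cytosolic heat shock genes, 2 were higher, Hsph1 (0.26 ± 0.03) and Hspa1b (0.37 ± 0.09), and 4 lower. The count lower was 0 without WT control replicate 3, and 2 without WT control replicate 2 or any 1 of the KO control libraries. Hspa1b has a near-identical copy, so its own level is uncertain, and it missed the threshold on log2(TPM + 0.1) (limma adjusted p = 0.0619). Of 17 NRF2 targets, 3 were higher (5 in a fit on only the groups compared) and 2 lower, the ferritin gene Ftl1 (-0.19 ± 0.03) and the thioredoxin reductase gene Txnrd1 (-0.16 ± 0.03).

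Metabolic and antiviral genes changed modestly. Of 21 cholesterol synthesis genes, 9 were higher and 1 lower (2 without KO control replicate 1; median 0.0802), and 4 were higher and 6 lower in the transgene lines. Hmgcs1, an early enzyme gene of the pathway, had 222, 221 and 227 TPM in the KO control, against 196, 188 and 188 TPM in the WT control (0.24 ± 0.03), and the feedback regulator gene Insig1 rose by 0.26 ± 0.04. Of 22 glycolysis and hypoxia genes, 6 were higher and 4 lower, and 2 were higher and 9 lower in the transgene lines (median -0.065). The mitophagy receptor gene Bnip3 had 103, 87.98 and 106 TPM in the KO control, against 62.8, 56.2 and 69.5 TPM in the WT control (0.63 ± 0.09), and the glucose transporter gene Slc2a3 fell by 0.19. Of 13 mitochondrially encoded genes, 4 were higher and 2 lower, mt-Nd5 (-0.37 ± 0.06) and mt-Nd6 (-0.37 ± 0.07), which are encoded on opposite strands and overlap at their ends. The count higher was 2 without WT control replicate 2 and 8 with no filter on low counts. Of 10 interferon response genes, 4 were higher and 0 lower (median 0.176), and 2 were higher and 3 lower in the transgene lines. Oas1a, a sensor gene for double-stranded RNA, had 21.9, 21.8 and 21.4 TPM in the KO control, against 13.5, 11.8 and 12.7 TPM in the WT control (0.79 ± 0.06; edgeR adjusted p = 8.73e-20), and Bst2, which encodes the antiviral protein tetherin, had 67.7, 66.8 and 75.6 TPM in the KO control, against 45.8, 45.4 and 47.1 TPM in the WT control (0.61 ± 0.06). Both rose in the transgene lines (Oas1a by 0.57 ± 0.06 and Bst2 by 0.64 ± 0.06). None of the 15 replication-dependent histone genes listed had a match in the table.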

How the data were processed

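RNA-seq was compared between 3 libraries each of the KO control and WT control lines, and of the KO transgene and WT transgene lines, at 0 min. The deposited table gives an expected count per gene and sample, estimated by the authors with Salmon 1.5.2 on mm10 per the submitters' processing notes, and TPM as deposited by the authors. Of the deposited expected counts, zeros included, 76% were whole numbers, and all were rounded. TPM summed to between 924452 and 947484 per library. Genes were placed with GENCODE M21 by versioned identifier (40140 of 40914 matched), leaving 514 tested genes unplaced. Genes with at least 10 counts in enough libraries (edgeR's filterByExpr, total of at least 15) were tested with edgeR 4.0.16 in R 4.3.3 (TMM scaling, robust quasi-likelihood fit, Benjamini-Hochberg over all genes), over all 60 long-course libraries with 1 coefficient for each line at each time. A separate fit took the 96 libraries of the short course. The code was tested on simulated data.

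The libraries held 29760522 to 42651558 counts. Their number, 3 in a group, limits the precision, and genes under 1 TPM rest on few reads.

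The members and gene lists were chosen with earlier results of these data known. Named genes were Firre, the 8 each way with the largest fold change (adjusted p below 0.05, mean CPM of at least 1, groups not overlapping), the 6 each way largest in both pairs of lines, the 4 each way with the largest TPM difference among genes past 0.58 on the log2 scale, and up to 2 called members of each list by smallest p. One gene that the rule names is not reported here. Alternatives were DESeq2 1.42.0, limma 3.58.1 on log2(TPM + 1) and log2(TPM + 0.1), other scaling, no filter, fits on only the groups compared, a replicate block and leaving out each library. No library pair was identical.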

Additional observations from a re-analysis of the deposited data

Results flagged for a closer look

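Of the 94 named genes, 33 had a fold change that differed between the control lines and the transgene lines at 0 min by the interaction term of the edgeR fit (adjusted p below 0.05), against 6.52% of all genes tested. Each value here is the log2 fold change of KO control against WT control minus that of KO transgene against WT transgene. The rule chose the named genes by their values in the control lines, and these values enter the difference. The share among named genes can therefore exceed that of all genes through the choice alone. The difference was negative for 23 genes and positive for 10, and the choice bears on these counts too. Of the 33, 20 were called in the same direction in both pairs, 6 in opposite directions and 7 in the control pair without passing the test in the transgene pair.

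Among the genes that turned direction, the differences were Btg2 -0.428, Ccnd1 0.438, Eif2s3y -1.66, Meg3 0.88, Plk2 -0.976 and Rian 0.936. Meg3 and Rian are noncoding RNAs of 1 imprinted cluster, and Plk2 and Btg2 are p53 targets. Among those not called in the transgene lines, they were Fgf7 -1.4, Insig1 0.179, Psat1 0.168, Tdpoz8 -1.55, Usp17lc -1.46, Zfp352 -1.36 and Zscan4d -0.869.

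Among the genes with the same direction in both pairs, the differences of at least 0.58 were Ddx3y -0.799, Firre -1.04, Spopfm2 -0.956, Spopfm3 -0.982, Usp26 -0.989 and Vsir -1.24. The smaller ones were Amotl2 -0.19, Dazl -0.383, Dnmt3l 0.289, Etv5 -0.169, Gsto1 -0.242, Hsph1 0.169, Mest 0.312, Plet1 -0.372, Pmaip1 -0.237, Slc2a3 -0.11, Tbx3 -0.223, Tdrd12 0.2, Tex19.1 -0.337 and Trh 0.217. A positive difference in a gene that fell in both pairs means a smaller fall in the control lines. The cause of these differences was not tested, and the 4 lines differ in genotype, transgene and line at once.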

How the results depend on the processing

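Each alternative kept the direction of all 94 named genes: of 1316 values, 1304 also kept their side of the threshold and 12 lost it, and 90 genes kept it throughout. The exceptions were Tsix, Pou5f1, Atf4 and Hspa1b. Pou5f1 lost its call with limma on TPM (adjusted p of 0.094 with a pseudocount of 1 and 0.0949 with 0.1), and Hspa1b with a pseudocount of 0.1 (limma adjusted p = 0.0619). Of 1064 counts of list members called, or of chromosome 11 genes called higher or lower, 956 stayed within 1.5 times and 108 moved.

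With limma on log2(TPM + 1) 3972 genes were called in the control lines and on log2(TPM + 0.1) 3867, against 6171, with 3810 and 3714 in the transgene lines and 406 and 392 for the difference between the pairs. Counting sizes past 0.58, log2(TPM + 1) gave 522 in the control lines, 399 in the transgene lines, 166 for the difference and 123 in the short course, and log2(TPM + 0.1) gave 201 for the difference. In the short course, a fit on only the groups compared called 275 genes, 148 of them with that size. The chromosome 11 median was 0.311 on log2(TPM + 1), 0.373 on log2(TPM + 0.1), 0.403 with no filter, 0.399 with only the groups compared and 0.416 with scaling factors from the other chromosomes, an alternative chosen after seeing the data. The chromosome Y median was -0.362, -0.47 and -0.468 with log2(TPM + 1), log2(TPM + 0.1) and only the groups compared. The cause of these shifts was not tested.

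Leaving out each library gave 5330 to 5527 calls in the control lines (1279 to 1323 with the size), 5224 to 5481 in the transgene lines (1127 to 1179), 862 to 1109 for the difference (271 to 303) and 418 to 1181 in the short course (140 to 294). The lowest short-course counts were 418 without WT control replicate 1 and 454 without KO control replicate 1. The chromosome 11 median ran from 0.399 to 0.406 and the chromosome Y median from -0.886 to -0.733.

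With the replicate number as a block, 6313 genes were called in the control lines (1398 with the size), 6199 in the transgene lines, 1234 for the difference and 1621 in the short course, with medians of 0.387 for chromosome 11 and -0.82 for chromosome Y. Deviations of same-numbered KO and WT control libraries correlated at -0.136, -0.0447 and -0.105 over 10797 genes, and none correlated best with its own number. The positive values were 0.207 (KO replicate 1 with WT replicate 2), 0.169 (KO 2 with WT 3) and 0.231 (KO 3 with WT 1). Genes that share a library are not independent, so these values do not show whether libraries were paired, which was not tested.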
